A study of Mus musculus with 6 samples.

Results

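The interleukins are secreted proteins through which white blood cells, stromal cells and epithelium signal to one another, and each acts through a receptor of 1 or more membrane chains. The genes described here are those whose symbol in the deposited tables begins with Il and a digit, without Il6, Il11, Il6st and predicted or pseudogene symbols. The rule found 80 genes among 24063 symbols, 79 of them with a row in all 6 tables, and 48 passed the filter on low counts, beside 13844 genes tested in all. Receptor chains of the IL-6 type, such as Il6ra and Il11ra1, match the symbol rule and were kept.

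RNA was sequenced from 3 early lesion (EL) and 3 primary tumour (PT) libraries of mammary spheres. All came from MMTV-HER2/Neu mice on the FvB background, which carry a Neu (ErbB2) oncogene driven by the mouse mammary tumour virus promoter, active mainly in mammary epithelium. EL spheres came from mice of 14 to 18 weeks with no palpable tumour, and PT spheres from tumours of mice over 20 weeks, so age and stage cannot be told apart. Cells from digested tissue grew as spheres, without attachment, over 7 days, with no sort of cells named in the labels, and the tissue label of the EL samples reads mammary lung. The labels name breast cancer cells in both groups and leave unsaid whether each library had its own mouse, so the p-values cover only library-to-library spread, possibly technical.

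Interleukin receptors work in combinations. A chain that binds the cytokine pairs with a partner chain, often shared by several receptors: Il1rap serves the receptors for IL-1, IL-33 and IL-36, Il2rg is the common gamma chain of the IL-2 group, and Il17ra pairs with other IL-17 receptor chains. Receptors of the IL-1 type signal through Myd88 to NF-kB, as do IL-17 receptors through another adaptor, and most of the others signal through JAK kinases and STAT factors. Decoy receptors and antagonists (Il1r2, Il13ra2, Il1rn, Il18bp) bind without passing on a signal.

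The deposited totals lay between 69759793 and 85126630 counts per library. The table of EL replicate 1 breaks off after 27664 of 33068 rows, and the rows it lacks held 5.54% to 6.96% of the counts of the other libraries. Correlations of log2 CPM (counts scaled to library totals of equal size) across genes were at least 0.995 within groups and at most 0.847 between them. Epithelial markers were present in both groups and all 10 were higher in PT, whereas all 14 fibroblast markers were lower, at a summed level of 74842 to 80194 CPM in EL and 762 to 905 in PT. In such bulk libraries fewer cells of a type and less RNA per cell cannot be told apart.

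Most of the tested interleukin and receptor genes were lower in PT. The edgeR quasi-likelihood test, at a Benjamini-Hochberg adjusted p under 0.05, called 31 of the 48 lower and 9 higher, and 8 did not pass. Of all genes tested 80.7% were called, 40.8% lower and 39.9% higher, and the share of members called (83.3%) was close to that. The members' median log2 fold change (PT minus EL, called the change below) was -0.97 and that of all tested genes 0.00. Falls of over 2-fold were called for 24 members, beside a background of 19.4%, and rises of over 2-fold for 3, beside 9.43%. Of the 48 members 9 cleared the filter's cutoff in all EL but not all PT libraries, and all 9 were called lower. In the other direction 1 member did so, and it was not called. The split, the falls and the median thus rest in part on genes that entered through EL. EL and PT values were without overlap for 39 members, beside a background of 82.7%. Of the 29 tested receptor genes in the IL-1, gamma chain, IL-10, IL-12 and IL-17 lists 21 fell and 5 rose, and of the 13 tested ligand and antagonist genes of these families 6 fell and 2 rose.

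**Figure D1:**
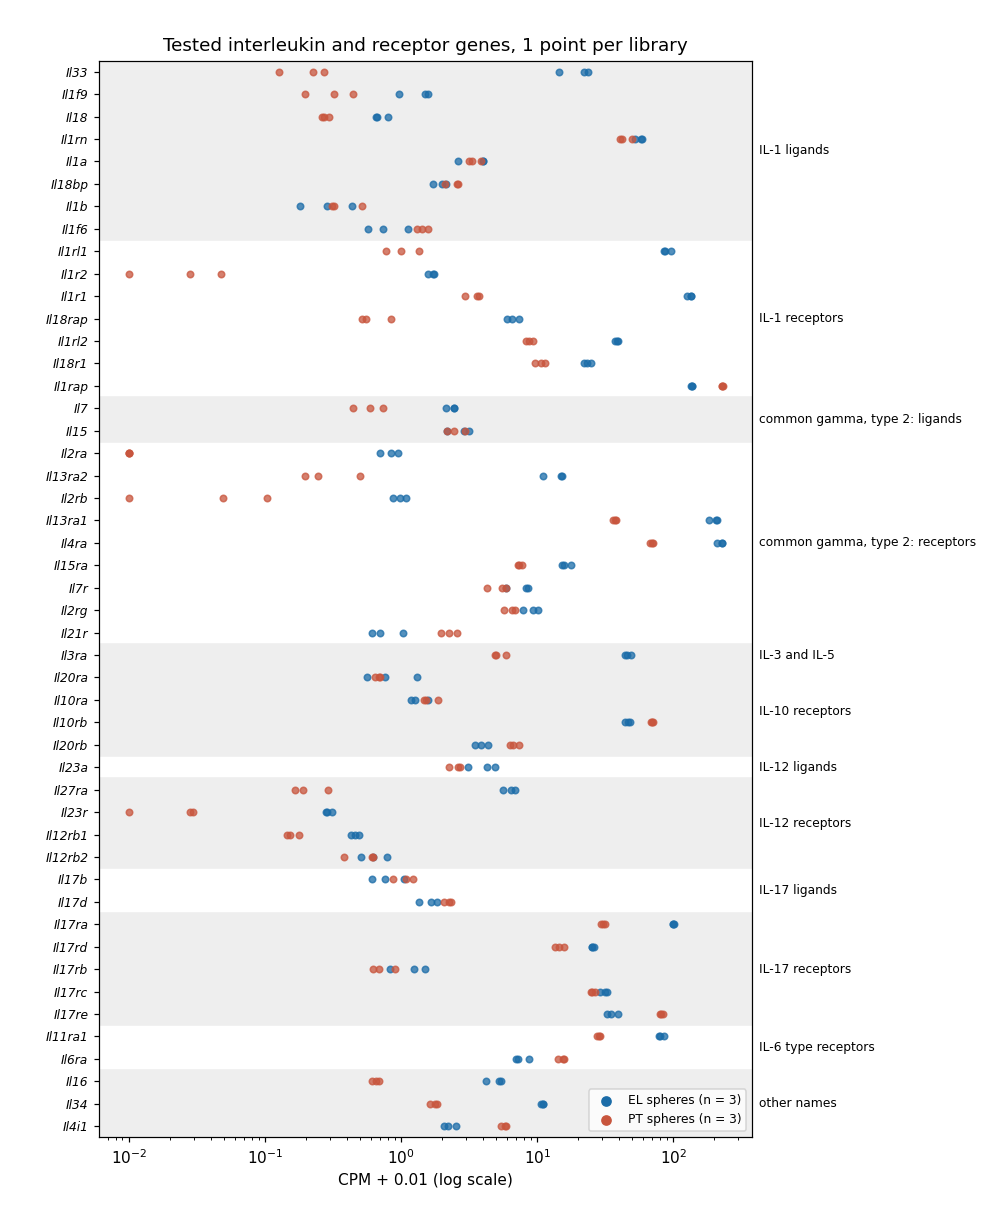
Level of each of the 48 tested genes in every library, as CPM + 0.01 on a log axis, with EL libraries in blue and PT libraries in red (n = 3 each), grouped by receptor family. Il1rl1, Il1r1 and Il33 lie far apart between the groups, Il1rap lies higher in PT, and Il1a and Il15 overlap.

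**Figure D2:**
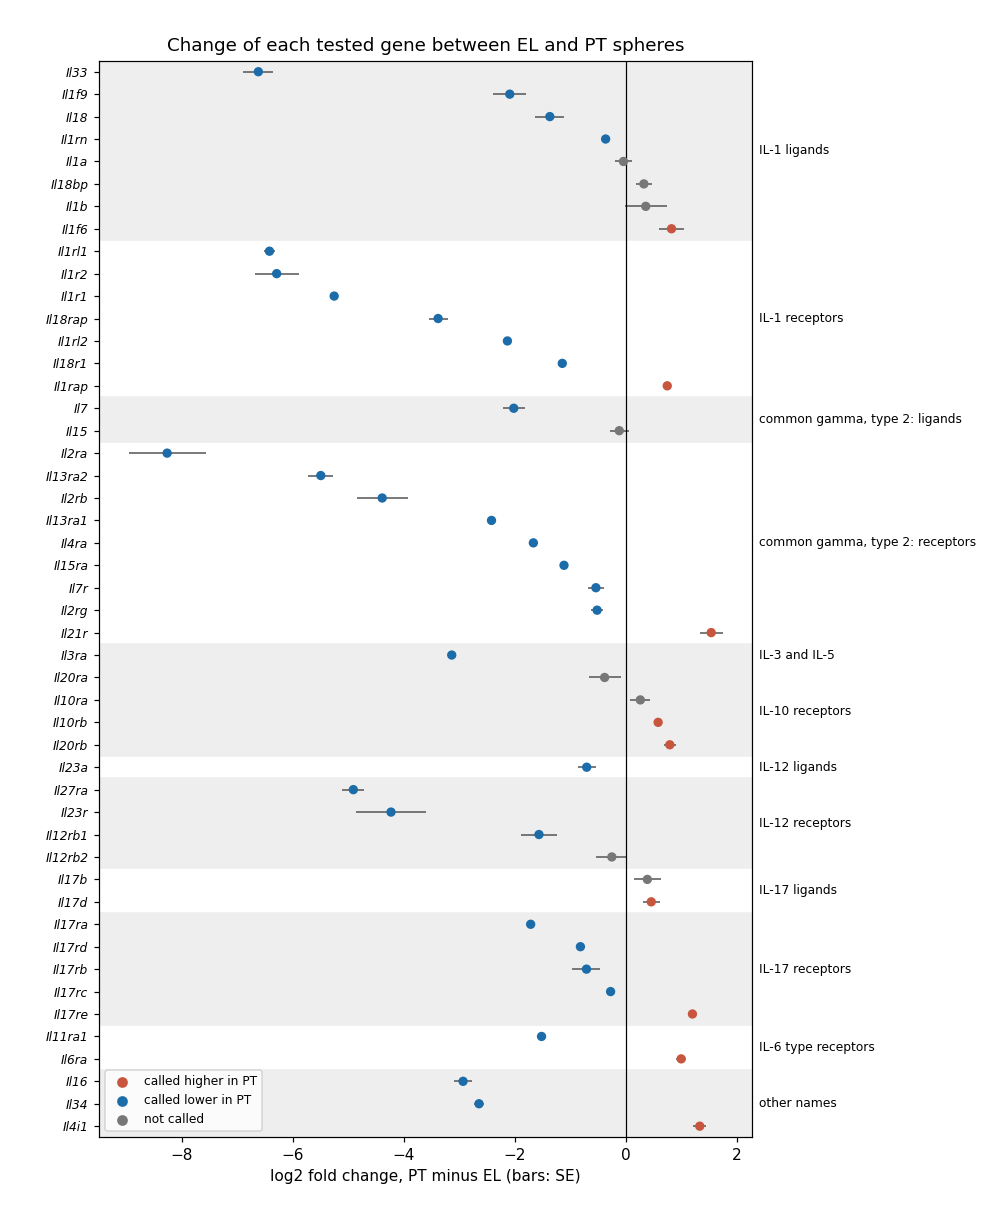
Log2 fold change (PT minus EL) of each tested gene with its SE, coloured by the edgeR call at an adjusted p under 0.05. Of the 48 points, 31 are called lower and 9 higher.

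Il33 and its receptor gene Il1rl1 were nearly lost from PT. IL-33 is an alarmin kept in the nucleus of stromal, endothelial and barrier cells, and Il1rl1 encodes ST2, its receptor, found on mast cells, regulatory T cells and innate lymphoid cells among others. Il33 (chromosome 19, 29925113 to 29960718, GRCm38) stood at 14.4, 22.0 and 23.4 CPM in the EL libraries and at 0.117, 0.262 and 0.216 in the PT libraries. All PT values were under 1 CPM and all EL values over 10, a log2 fold change of -6.62 (SE 0.27; edgeR adjusted p = 7.35e-11). Il33 was 1 of the 9 members that cleared the filter's cutoff in all EL but not all PT libraries. Il1rl1 (chromosome 1, 40404864 to 40465418) stood at 85.6, 87.0 and 96.3 CPM in EL and at 0.761, 0.993 and 1.35 in PT. The groups were again far apart, with 86.7-fold more in EL (change -6.42, SE 0.10; edgeR adjusted p = 5.80e-15).

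The RefSeq promoter table (GRCm38.p6) holds 2 start regions for each gene, and the annotated span of Il1rl1 begins upstream of both of its regions. The counts could not say which start was used, since reads were counted for every transcript they touched: the 2 Il33 rows differed by at most 1 count in any library. The start regions of Il33 and Il1rl1, which fell together, are printed beside that of Il1rap, the shared partner chain that rose. Each runs from 250 bases before a start to 50 after it, 5′ to 3′, and capitals mark matches on either strand to a searched motif. The motifs were TGANTCA for AP-1, AGATAA for factors of the GATA family, TTCNNNGAA for the gamma-activated site of STAT proteins, GGGCGG for the GC box and TATAAA for the box found before many start sites.
Il33 upstream start (chr19:29924863-29925162, plus strand): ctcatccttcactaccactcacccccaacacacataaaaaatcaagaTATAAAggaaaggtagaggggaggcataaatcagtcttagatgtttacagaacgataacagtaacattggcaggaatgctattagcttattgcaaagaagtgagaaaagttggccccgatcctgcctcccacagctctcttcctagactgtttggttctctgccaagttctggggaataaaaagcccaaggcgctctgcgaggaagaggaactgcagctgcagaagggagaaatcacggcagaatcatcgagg
Il33 downstream start (chr19:29945540-29945839, plus strand): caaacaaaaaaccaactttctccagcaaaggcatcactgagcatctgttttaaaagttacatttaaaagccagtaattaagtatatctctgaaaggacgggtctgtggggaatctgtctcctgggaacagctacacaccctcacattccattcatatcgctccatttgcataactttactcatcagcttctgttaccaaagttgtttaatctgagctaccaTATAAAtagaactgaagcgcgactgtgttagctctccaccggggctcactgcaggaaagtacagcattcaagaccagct
Il1rl1 distal start (chr1:40429320-40429619, plus strand): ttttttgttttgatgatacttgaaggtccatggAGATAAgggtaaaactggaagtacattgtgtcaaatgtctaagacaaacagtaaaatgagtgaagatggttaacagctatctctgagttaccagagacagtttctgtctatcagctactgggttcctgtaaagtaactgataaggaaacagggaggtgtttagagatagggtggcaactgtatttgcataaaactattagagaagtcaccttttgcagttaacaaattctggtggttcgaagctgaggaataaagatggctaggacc
Il1rl1 proximal start (chr1:40439379-40439678, plus strand): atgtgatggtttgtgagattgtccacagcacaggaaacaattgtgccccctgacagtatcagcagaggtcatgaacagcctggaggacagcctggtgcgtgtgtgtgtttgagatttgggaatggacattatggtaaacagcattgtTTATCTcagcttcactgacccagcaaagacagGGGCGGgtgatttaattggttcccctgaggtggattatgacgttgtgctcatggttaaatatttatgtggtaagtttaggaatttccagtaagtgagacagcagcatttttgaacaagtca
Il1rap start (chr16:26581455-26581754, plus strand): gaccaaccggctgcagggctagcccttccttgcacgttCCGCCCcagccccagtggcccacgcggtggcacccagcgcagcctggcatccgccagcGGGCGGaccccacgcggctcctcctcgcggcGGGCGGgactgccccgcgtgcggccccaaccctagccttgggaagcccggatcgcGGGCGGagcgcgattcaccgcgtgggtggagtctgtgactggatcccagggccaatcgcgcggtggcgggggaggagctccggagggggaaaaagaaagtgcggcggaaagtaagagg
Each Il33 region held 1 match to TATAAA, found in 13.6% of all 32851 promoters of this length. Each Il1rl1 region held 1 match to AGATAA (11.2% of all), and the proximal one also 1 GC box. The Il1rap region held 4 GC boxes, a motif present in 35.7% of promoters. No region held TGANTCA (7.81%) or TTCNNNGAA (8.3%). These are matches of letters and no evidence of binding.

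The chains that pair with Il1rap fell while Il1rap rose. Il1r1, the signalling receptor of IL-1, stood at 133, 125 and 135 CPM in EL and at 2.93, 3.58 and 3.74 in PT. Every PT library was below every EL library, 38.4-fold in the means (change -5.26, SE 0.07; edgeR adjusted p = 7.95e-16). Il1rl2, the IL-36 receptor of epithelial and dendritic cells, went from 38.4, 39.1 and 37.4 to 8.29, 9.23 and 8.66 CPM (change -2.13, SE 0.05). Il1rap (chromosome 16, 26581509 to 26730128) stood at 134, 137 and 136 CPM in EL and at 230, 226 and 228 in PT. Its libraries were close within each group and apart between them (change 0.75, SE 0.03; edgeR adjusted p = 4.24e-11). Per kb of transcript, Il1rap and Il1r1 were near equal in EL (ratio 1.11 ± 0.0612, SD, n = 3), and in PT Il1rap was 72.2 ± 10.2 times higher (n = 3). The ratio of Il1rap to Il1rl1 went from 0.893 ± 0.0551 to 137 ± 39.2 and that to Il1rl2 from 1.53 ± 0.0349 to 11.3 ± 0.701. The level of Il1rl1 per kb rests on a transcript of 2661 bases. Another, of 1216 bases, had near-equal counts, and with its length, tried after seeing the data, the ratio of Il1rap to Il1rl1 was 0.408 ± 0.0252 in EL and 62.7 ± 17.9 in PT. Both are rows of the soluble form (337 residues). The row of the membrane form, of 5302 bases, had fewer counts in EL. Per kb it thus stood lower there, and the ratio of Il1rap to it, not computed, was higher than 0.893. These ratios lie within a library and do not depend on the scaling between libraries.

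The decoy receptor gene Il1r2 had 202 EL counts but 3 PT counts, which makes a ratio of 89.5 (exact 95% interval 30.2 to 438, counting error only). Its log2 fold change of -6.29 was -7.11 without PT replicate 2, which held 2 of the 3 counts. The IL-18 receptor chains fell by different amounts. Il18r1, which binds IL-18, went from 22.1, 23.1 and 24.9 to 9.57, 11.4 and 10.7 CPM (change -1.14, SE 0.07), and its partner Il18rap from 6.46, 5.99 and 7.32 to 0.546, 0.506 and 0.826 CPM (change -3.38, SE 0.17). Neither gene's groups overlapped, and the ratio of Il18rap to Il18r1 per kb went from 0.240 ± 0.0163 to 0.0506 ± 0.0141.

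Of these receptor genes, 6 lie side by side on mouse chromosome 1, from Il1r2 (40084692) to Il18rap (40551707), with no other protein-coding RefSeq gene between them. All 6 fell, in map order by -6.29, -5.26, -2.13, -6.42, -1.14 and -3.38 on the log2 scale for Il1r2, Il1r1, Il1rl2, Il1rl1, Il18r1 and Il18rap. The sizes did not follow the order on the chromosome: Il1rl1 and Il18r1, whose spans lie next to each other, were at opposite ends of the range. The coding genes on either side also fell, Map4k4 by -0.75 (SE 0.03) and Slc9a4 by -2.81 (SE 0.27). Il1rap, the 1 tested member of the receptor list that rose, is on chromosome 16.

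**Figure D3:**
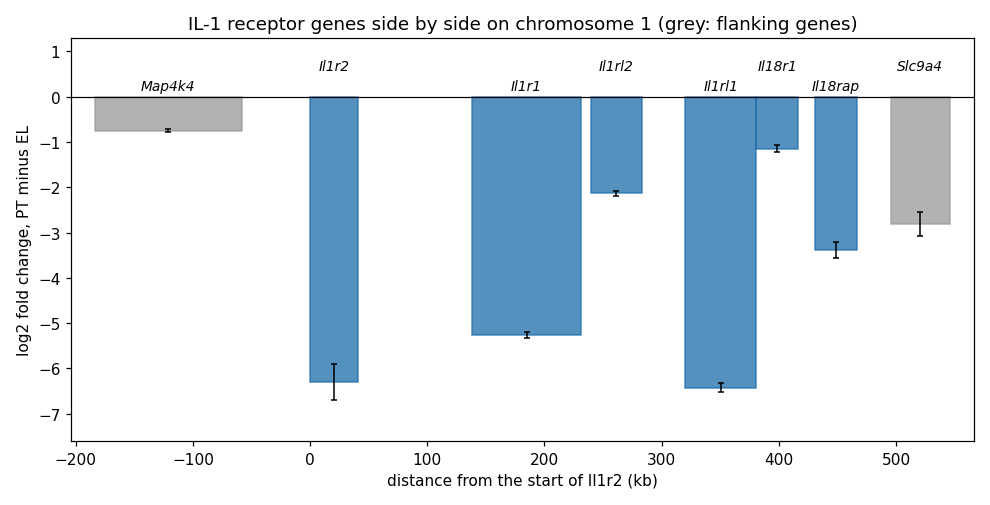
Log2 fold change (PT minus EL, bars SE) of the 6 receptor genes on chromosome 1 in blue and their flanking coding genes in grey, drawn over each gene's span in kb from the start of Il1r2. All 8 lie below 0, with Il1rl1 at -6.42 and its neighbour Il18r1 at -1.14.

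The tables count each RefSeq transcript, so forms of a receptor could be set side by side, though most reads are shared between forms. These were a soluble and a membrane form for Il1rl1 and Il1rap, and a shorter and a longer form for Il18r1 and Il17re. The Il1rl1 row for the soluble form (337 residues in the matched GENCODE M21 transcript) had 3483, 3456 and 3867 counts in EL and 39, 53 and 75 in PT, and the row for the membrane form (567 residues) 2892, 2851 and 3021 in EL and 43, 45 and 52 in PT. Both forms' rows were low in PT, and their ratio overlapped between groups, at 1.23 ± 0.0416 in EL and 1.18 ± 0.268 in PT (exact two-sided permutation p = 0.7, n = 3 each). For Il18r1 the ratio of the 372-residue to the 537-residue form was 0.509, 0.594 and 0.526 in EL and 0.725, 0.754 and 0.829 in PT. These groups did not overlap (exact permutation p = 0.1, the smallest 3 against 3 allows; 0.4 after Benjamini-Hochberg adjustment over 4 ratios). For Il1rap the ratio of the 360-residue soluble form to the 570-residue form was 0.319 ± 0.00766 in EL and 0.309 ± 0.00389 in PT (exact permutation p = 0.2; adjusted 0.4). The fourth ratio, between the 436-residue and 637-residue forms of Il17re, was 0.869 ± 0.00921 and 0.864 ± 0.0103 (exact permutation p = 0.7).

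Among the IL-1 family ligands and antagonists 4 of 8 tested genes fell, 1 rose and 3 did not pass. Of all genes 40.8% were called lower and 39.9% higher. Il33 and Il1f9, among the 4 that fell, had cleared the filter's cutoff in all EL but not all PT libraries. Il1rn, the IL-1 receptor antagonist, was the most abundant ligand gene in both groups, at 52.6, 59.1 and 57.5 CPM in EL and 40.5, 49.4 and 41.6 in PT. The groups lay close without overlap (change -0.36, SE 0.07; edgeR adjusted p = 3.12e-04), and the call ended when library totals replaced the TMM factors (-0.12, adjusted p = 0.124). The agonist Il1a overlapped between groups, at 2.60, 4.003 and 3.99 CPM in EL and 3.14, 3.82 and 3.32 in PT (change -0.04, SE 0.16; edgeR adjusted p = 0.819). Il1b, the other agonist, was low and overlapped too, at 0.172, 0.277 and 0.423 CPM in EL and 0.312, 0.300 and 0.503 in PT (edgeR adjusted p = 0.39). Reads of Il1b and of Il1bos, a noncoding gene that overlaps it, cannot be told apart without a stated strand setting. The Il1bos row was among those absent from EL replicate 1. It had 0 counts in EL replicates 2 and 3 and 1, 1 and 4 in the PT libraries, too few for the filter.

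The IL-36 genes, whose proteins act on epithelium through Il1rl2, did not move together. Il1f9 (IL-36 gamma) fell from 0.958, 1.56 and 1.49 to 0.312, 0.187 and 0.431 CPM (change -2.09, SE 0.30), and Il1f6 (IL-36 alpha), its neighbour on chromosome 2, rose from 0.565, 0.730 and 1.12 to 1.31, 1.55 and 1.42 CPM (change 0.82, SE 0.23; edgeR adjusted p = 0.00554). Neither gene's groups overlapped. Il1f10, another gene of this cluster, was below the filter with 39 EL and 1 PT counts, for a ratio of 51.9 (exact 95% interval 8.78 to 2100). Also below it was Il1f5, which encodes the IL-36 receptor antagonist, with 13 EL and 31 PT counts and overlapping groups. Il18, a cytokine activated by caspase-1, fell from 0.786, 0.655 and 0.648 to 0.254, 0.262 and 0.287 CPM (change -1.37, SE 0.26). Its span overlaps Bco2 and Tex12. Its soluble inhibitor Il18bp overlapped between groups, at 1.99, 2.11 and 1.72 CPM in EL and 2.11, 2.62 and 2.57 in PT (edgeR adjusted p = 0.0601), and was called higher with upper-quartile factors (0.0313), with library totals (0.00301) and without PT replicate 1 (0.0299).

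Receptor chains for IL-4 and IL-13 were among the most abundant members and fell. Il4ra, the chain shared by both receptors, stood at 210, 226 and 226 CPM in EL and at 67.6, 70.7 and 70.03 in PT (change -1.67, SE 0.04). Il13ra1, its partner outside the blood lineage, stood at 181, 206 and 209 CPM in EL and at 35.7, 38.1 and 37.5 in PT (change -2.42, SE 0.05; edgeR adjusted p = 1.33e-13). Every PT library was below every EL library for both. Il13ra2, a decoy for IL-13 known from fibroblasts, fell further, from 10.98, 14.8 and 15.2 CPM to 0.488, 0.187 and 0.234 (change -5.50, SE 0.22). The ratio of Il13ra1 to Il4ra per kb went from 1.28 ± 0.0446 to 0.757 ± 0.00687. The ligands themselves were at or near 0: Il4 had 3 counts in all and Il13 had 1.

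The chains of the IL-2 receptor were low and nearly absent from PT. Il2ra, the high-affinity chain of activated and regulatory T cells, stood at 0.688, 0.831 and 0.947 CPM in EL and had no count in PT, at least 43.9-fold lower when 3 counts over the group are set as the limit. Il2rb stood at 1.08, 0.856 and 0.972 CPM in EL and at 0.0390, 0.0936 and 0 in PT. The log2 fold change of Il2rb was -4.39 (SE 0.46), and -5.50 without PT replicate 2 and -3.80 without PT replicate 3. Il2rg, the common gamma chain, changed far less, from 7.81, 9.31 and 10.1 to 5.67, 6.46 and 6.84 CPM (change -0.52, SE 0.11; edgeR adjusted p = 5.82e-04). Il7r, the IL-7 receptor of lymphocytes, stood at 5.92, 8.23 and 8.59 CPM in EL and 4.29, 5.84 and 5.50 in PT (change -0.54, SE 0.15), and its call ended with library totals (adjusted p = 0.0745). Per kb, the ratio of Il2rg to Il7r overlapped between groups, at 2.56 ± 0.210 and 2.60 ± 0.233.

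Il21r was the 1 gene of the 9 tested in this receptor list that rose, from 0.688, 0.604 and 1.02 CPM to 1.97, 2.55 and 2.23 (change 1.54, SE 0.21; edgeR adjusted p = 1.54e-05). It is known from B, T and NK cells, and it lies next to Il4ra on chromosome 7 (125552271 to 125579474 for Il4ra, 125603252 to 125634397 for Il21r), which fell. Il15ra, which presents IL-15 to neighbouring cells, fell from 15.6, 15.2 and 17.6 to 7.76, 7.23 and 7.38 CPM (change -1.11, SE 0.07). Its ligand Il15 overlapped between groups, at 2.87, 2.16 and 3.14 CPM in EL and 2.44, 2.96 and 2.16 in PT (edgeR adjusted p = 0.532). Il7, a stromal growth factor for lymphocytes, fell from 2.46, 2.11 and 2.44 to 0.722, 0.581 and 0.431 CPM (change -2.02, SE 0.20). Il3ra, the IL-3 receptor chain of myeloid progenitors and endothelium, fell from 45.4, 49.1 and 43.8 to 4.93, 5.92 and 4.85 CPM (change -3.14, SE 0.07), while Csf2rb, the common beta chain, fell from 36.4 ± 5.603 to 24.9 ± 2.02 CPM (change -0.55, SE 0.09).

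None of the 4 tested receptor genes of the IL-10 family was called lower, and 2 were called higher, beside 40.8% and 39.9% of all genes. Il10rb, a chain shared by the receptors of IL-10, IL-22 and the lambda interferons, rose from 44.4, 47.7 and 46.3 to 70.3, 69.1 and 68.1 CPM (change 0.58, SE 0.04; edgeR adjusted p = 8.78e-09). Il20rb, a chain of the IL-20 and IL-24 receptors in epithelium, rose from 3.88, 4.33 and 3.46 to 7.39, 6.27 and 6.59 CPM (change 0.79, SE 0.11). Groups did not overlap for either gene. Il10ra, the IL-10 binding chain of white blood cells, overlapped, at 1.18, 1.26 and 1.57 CPM in EL against 1.502, 1.85 and 1.45 in PT, without passing (edgeR adjusted p = 0.195), though it passed with library totals (0.0178). Il20ra overlapped too, at 1.302, 0.554 and 0.747 CPM in EL and 0.683, 0.693 and 0.629 in PT (edgeR adjusted p = 0.239), and its log2 fold change of -0.38 was 0.04 without EL replicate 1. No ligand of this family reached the filter. Il24 had 39 EL and 10 PT counts, and Il19 had 15 and 2, for a ratio of 9.97 (exact 95% interval 2.32 to 89.9).

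In the IL-12 family 3 of the 4 receptor genes were called lower, beside 40.8% of all genes. All 3 (Il27ra, Il23r and Il12rb1) had cleared the filter's cutoff in all EL but not all PT libraries. Il27ra, the IL-27 receptor of lymphocytes and other cells, stood at 5.55, 6.39 and 6.88 CPM in EL and at 0.156, 0.281 and 0.180 in PT (change -4.91, SE 0.20). Its span overlaps Palm3. Il23r had 34 EL and 2 PT counts, for a ratio of 22.6 (exact 95% interval 5.80 to 194). Il12rb1, the chain shared by the IL-12 and IL-23 receptors, fell from 0.418, 0.478 and 0.448 to 0.137, 0.169 and 0.144 CPM (change -1.56, SE 0.32). Il12rb2, the other chain of the IL-12 receptor, overlapped between groups, at 0.614, 0.780 and 0.498 CPM in EL and 0.371, 0.599 and 0.611 in PT (edgeR adjusted p = 0.417). The span of Il12rb2 overlaps Serbp1. Among the ligands, Il23a fell from 3.09, 4.28 and 4.88 to 2.24, 2.68 and 2.59 CPM (change -0.70, SE 0.16). Il12b, whose product is the other subunit of IL-23 and of IL-12, had 22 EL counts and none in PT, at least 9.75-fold lower against 3 counts over the group.

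The IL-17 receptor chains were split. Il17ra, the chain common to these receptors, stood at 101, 98.8 and 99.8 CPM in EL and at 30.4, 29.6 and 31.4 in PT (change -1.71, SE 0.04; edgeR adjusted p = 8.64e-14). Il17re, the epithelial receptor chain for IL-17C, stood at 38.8, 34.7 and 32.5 CPM in EL and at 80.0, 83.5 and 80.7 in PT (change 1.20, SE 0.05; edgeR adjusted p = 1.93e-10). Each gene's groups were apart, in opposite directions. Per kb, Il17re stood at 0.932 ± 0.0769 of Il17ra in EL and at 7.05 ± 0.352 times Il17ra in PT.

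Il17rc, the partner of Il17ra for IL-17A and IL-17F, lies next to Il17re on chromosome 6 (113458699 to 113470758 for Il17re, 113471455 to 113483163 for Il17rc). Il17rc stood at 32.4, 31.4 and 28.8 CPM in EL and 24.8, 26.7 and 25.2 in PT (change -0.27, SE 0.05; edgeR adjusted p = 4.24e-04), and the call ended with library totals (-0.03, adjusted p = 0.658). Il17rd, a chain that also restrains FGF signalling, fell from 26.1, 25.2 and 25.2 to 13.4, 14.4 and 15.6 CPM (change -0.82, SE 0.06). Il17rb, the IL-25 receptor chain, was called lower with overlapping groups, at 1.498, 1.23 and 0.822 CPM in EL and 0.897, 0.674 and 0.611 in PT (edgeR adjusted p = 0.0204). That call ended with library totals (0.104), on leaving out EL replicate 1 (0.0908) or 2 (0.0503) or PT replicate 2 (0.0648) or 3 (0.0793), and in the 5 complete tables (0.0884).

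The classical ligands of these receptors were at or near 0: Il17a and Il25 had no count in any library, Il17f 1 count in all, and Il17c, the ligand of Il17re, 12 counts in EL and 17 in PT. For a gene at 0, 3 counts over a group is the limit that this depth allows. Il17d rose from 1.65, 1.81 and 1.35 to 2.30, 2.25 and 2.07 CPM (change 0.46, SE 0.15; edgeR adjusted p = 0.0151), and the call ended with DESeq2 (0.0506) and without EL replicate 3 (0.0713). Il17b overlapped between groups (1.03, 0.604 and 0.747 CPM in EL, 1.21, 1.07 and 0.862 in PT; edgeR adjusted p = 0.147). It was called higher with library totals (0.0237), without EL replicate 1 (0.0360) and in the 5 complete tables (0.0383).

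**Figure D4:**
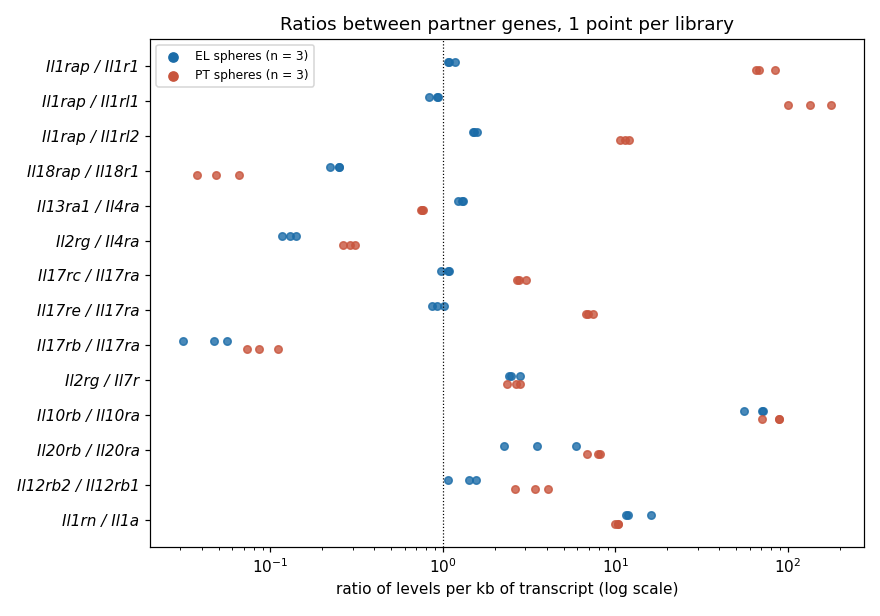
Ratio of levels per kb of transcript between 14 pairs of partner genes (receptor chains, and the antagonist Il1rn over the agonist Il1a) in each library, on a log axis, EL in blue and PT in red. The groups do not overlap for 12 pairs, beside 82.7% of all tested genes taken singly, and no share was computed for other gene pairs. The mean ratio of Il1rap to Il1r1 goes from 1.11 to 72.2.

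The receptor chains of the IL-6 type that carry an Il symbol went opposite ways. Il6ra, the IL-6 binding chain, rose from 7.15, 8.71 and 6.93 to 14.3, 15.8 and 15.4 CPM (change 1.00, SE 0.09; edgeR adjusted p = 2.06e-07). Il11ra1, the IL-11 receptor of stromal and other cells, fell from 85.6, 77.7 and 79.3 to 29.0, 28.4 and 27.3 CPM (change -1.52, SE 0.04). Its span overlaps Ccl27a. Its near-identical copy Il11ra2 had 28 EL and 14 PT counts, and reads of the 2 copies may not be separable. Of 3 further genes, Il34, a ligand of the macrophage receptor Csf1r, fell from 10.9, 11.1 and 10.6 to 1.81, 1.61 and 1.78 CPM (change -2.65, SE 0.10). Csf1r was at 16.2 ± 1.90 and 18.1 ± 1.95 CPM (edgeR adjusted p = 0.115) and its other ligand Csf1 at 250 ± 6.95 and 194 ± 9.47 CPM (change -0.36). Il16, a chemoattractant for CD4 cells, fell from 5.40, 4.18 and 5.18 to 0.644, 0.599 and 0.683 CPM, and Il4i1, an amino acid oxidase and not a cytokine, rose from 2.51, 2.04 and 2.22 to 5.93, 5.79 and 5.37 CPM (change 1.33, SE 0.11). Reads of Il4i1 may be shared with the overlapping Il4i1b and Tbc1d17.

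The order of levels per kb of transcript differed between groups. In EL it ran from Il13ra1 (53.5 CPM per kb) through Il11ra1 (44.0), Il4ra (41.9), Il1rl1 (33.7) and Il1rap (30.01) to Il3ra (28.6) and Il1r1 (27.1). In PT it ran from Il1rap (50.4) through Il10rb (37.4), Il17re (27.7), Il1rn (17.7), Il11ra1 (15.4) and Il4ra (13.2) to Il17rc (11.1) and Il13ra1 (9.997). The lengths are those of GENCODE M21 transcripts, which matched 111 of the 112 member transcripts and may differ from the annotation used for counting. With the 1216-base transcript, Il1rl1 would stand at 73.7 CPM per kb in EL, above Il13ra1. With the row of its membrane form (5302 bases, fewer EL counts) it would stand below 33.7.

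Of the 31 untested genes that every table held, 12 had no count in any library, 12 had 1 to 9 counts over the 6 libraries and 7 had 10 to 49. Those at 0 were Il9, Il12a, Il17a, Il1f8, Il20, Il21, Il22, Il22ra2, Il25, Il31, Il1rapl1 and Il1rapl2. Il2, Il3, Il4, Il5, Il10 and Il13, cytokines of activated lymphocytes and myeloid cells, had 1 to 7 counts each. Of the 48 tested genes 9 (Il12rb1, Il13ra2, Il1f9, Il1r2, Il23r, Il27ra, Il2ra, Il2rb and Il33) passed the filter through the EL libraries and 1 (Il1b) through the PT libraries.

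Genes that act with or after these receptors were read from the same fit, in which 39.9% of all genes were called higher and 40.8% lower. Of 26 tested genes of the Myd88, IRAK and NF-kB list 19 were called higher and 3 lower, with a median log2 fold change of 0.31 beside 0.00 for all genes (23 higher, 1 lower and a median of 0.56 with library totals). The NF-kB inhibitors Tnfaip3 and Nfkbia rose from 58.5 ± 3.30 to 175 ± 6.75 CPM and from 63.6 ± 3.03 to 158 ± 7.18 CPM, the subunit Rela rose by 0.74 (SE 0.03) on the log2 scale and the ligase Traf6 by 0.53 (SE 0.04). The adaptor Myd88 was among the 3 lower, at 66.2 ± 2.42 CPM in EL and 48.6 ± 1.22 in PT, and 4 genes of its list did not pass. The JAK, STAT and SOCS list had 12 higher and 8 lower of 22 (median 0.15). Its feedback inhibitors went opposite ways: Socs2 rose from 10.8 ± 0.757 to 106 ± 2.33 CPM, and Socs3 fell from 87.9 ± 11.2 to 17.0 ± 2.00 CPM, as did Socs1, at 8.38 ± 0.531 in EL and 1.21 ± 0.0933 in PT. The kinase Jak2 fell by 1.10 (SE 0.04) on the log2 scale.

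In the list of IL-1 processing and inflammasome genes 7 of 11 tested were lower and 2 higher (median -0.46). Among the 7 were Anxa2 and S100a10, which are not inflammasome components. Gsdmd, the pore protein through which mature IL-1 leaves cells, fell from 16.1 ± 0.418 to 1.86 ± 0.412 CPM, Casp4 changed by -1.12 (SE 0.06) and Anxa2 by -0.68 (SE 0.04) on the log2 scale, and the adaptor Pycard rose from 11.4 ± 0.242 to 22.2 ± 0.422 CPM. Of 14 tested partner genes with other names 5 were higher and 7 lower (7 and 6 with library totals). Sigirr, an inhibitory receptor of the IL-1 type, rose from 12.1 ± 2.07 to 29.6 ± 1.47 CPM. Crlf2, the receptor chain that pairs with Il7r to bind TSLP, fell from 45.8 ± 1.75 to 19.8 ± 0.454 CPM. The ligand gene Tslp was low and rose, from 0.258 ± 0.128 to 1.68 ± 0.380 CPM (change 2.69, SE 0.31). Osmr and Lifr fell, by -0.53 (SE 0.04) for Osmr and -2.08 (SE 0.09) for Lifr.

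Marker lists of other cell types went in different directions. The 14 fibroblast markers had a median log2 fold change of -6.39, and all 12 endothelial markers fell (median -5.23), from a summed 302 to 322 CPM in EL to 20.3 to 23.8 in PT; no marker of either list was at 0 in PT. Of 9 mast cell and basophil markers 3 were tested and all 3 fell, from a summed 11.5 to 13.3 CPM for the list to 0.468 to 0.637, with Cpa3 and Fcer1a at 0 in EL and Tpsb2, Mcpt4, Cma1 and Fcer1a at 0 in PT. The T cell list summed to 12.9 to 13.9 CPM in EL and 11.3 to 11.8 in PT, with Cd3e at 0.183 ± 0.128 CPM in EL, and Cd3e, Cd3g and Cd8a at 0 in PT. Of its 4 tested members 2 were lower and 1 higher, and Foxp3 made up most of its sum (7.41 ± 0.638 and 9.52 ± 0.235 CPM).

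Macrophage markers were higher in 11 of 13 and lower in 1 (summed 326 to 343 CPM in EL and 675 to 698 in PT). Cd14 alone stood at 240 ± 3.87 CPM in EL and 481 ± 4.99 in PT, most of the macrophage sum. C1qa, at 8.62 ± 1.27 CPM in EL and 49.0 ± 4.26 in PT, rose by 2.51 (SE 0.09) on the log2 scale. C1qb rose by 2.86 (SE 0.13) and C1qc by 2.80 (SE 0.09), and Mertk, the 1 lower marker, changed by -0.58 (SE 0.10). Pan-leukocyte markers were higher in 7 of 8 and lower in 1, with sums that overlapped (166 to 202 and 164 to 193 CPM). The 1 lower was Cd53, the most abundant of that list in EL, which went from 78.4 ± 7.84 to 21.5 ± 2.24 CPM. The 10 epithelial markers rose with a median of 1.54, from a summed 2563 to 2619 CPM to 8850 to 9232. Neutrophil markers summed to 16.5 to 19.4 CPM in EL and 6.29 to 6.90 in PT (2 of 3 tested lower), dendritic markers to 14.0 to 16.9 and 15.1 to 19.2 (3 of 4 lower), and B cell markers to 3.30 to 6.33 and 4.79 to 5.58 (1 of 2 lower). The part of these cell types in the changes of the interleukin genes was not tested.

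**Figure D5:**
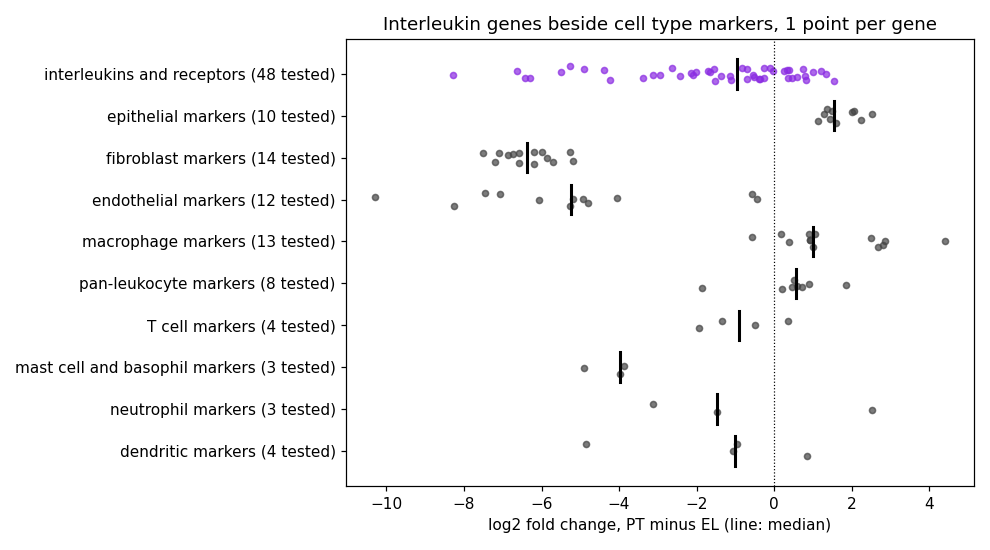
Log2 fold change (PT minus EL) of every tested gene in the interleukin set (purple) and in 9 marker lists (grey), 1 point per gene, with the median as a black line. The interleukin genes reach up to 1.54 around a median of -0.97 (the same with Il2ra, which has no PT count and is drawn at a fitted value, at its bound of -5.46), between the fibroblast markers (median -6.39) and the epithelial markers (median 1.54).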

How the data were processed

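The 3 EL and 3 PT libraries were compared. The deposited files hold raw counts per RefSeq transcript with a gene symbol, made by the authors. The tools named are STAR, featureCounts and DESeq2, with mm10 and hg19 as builds, per the submitters' processing notes. For versions and strand, the entry is: not given in the sources used here. A read appears to have been counted for each transcript it overlaps. For each symbol the transcript with the highest mean count among rows in all 6 tables was used (19893 symbols), so 5404 rows absent from EL replicate 1 were left out. No row lacked a gene name. Genes were kept by filterByExpr, scaled by TMM factors (0.914 to 1.09) and tested with edgeR 4.0.16 in R 4.3.3 (quasi-likelihood test, Benjamini-Hochberg over 13844 genes, threshold 0.05). SE is the absolute log2 fold change divided by the square root of the F statistic. Values are mean ± SD of CPM on TMM-scaled totals. Members and lists were chosen with earlier results of these data known. The rule for named genes gives values per library for up to 30 called members with a mean of at least 1 CPM in a group, for tested members that did not pass, and for partners; of each list it names up to the 4 smallest p-values. Other members, list genes, map neighbours and markers were named after their values were seen. The NK and innate lymphoid marker list is not reported here. The test was checked on simulated counts in which few genes changed, as many up as down. That check does not cover the scaling where most genes change, as here. Alternatives were RLE, upper-quartile and no factors, DESeq2 1.42.0, limma-voom (limma 3.58.1), other filters, summed transcripts, a replicate block, a 2-fold minimum and each library left out. The run on the 5 complete tables and the second Il1rl1 length were chosen after seeing the data.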

Additional observations from a re-analysis of the deposited data

How the results depend on the processing

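Of the 40 called members 35 kept direction and call under every alternative that tested them, except the 2-fold minimum, and 24 with it too. The filter at 1 CPM left Il12rb1, Il18, Il1f9, Il23r, Il2ra, Il2rb and Il17rb untested and gave 24 members lower. Il17d, Il17rb, Il17rc, Il1rn and Il7r lost theirs in at least 1, as given above, and the cause was not tested. Against a 2-fold minimum edgeR called 3 members higher and 21 lower, and 1010 and 2391 of all genes, since smaller changes then cannot pass. Leaving out each library in turn gave 8 to 10 members higher and 30 to 33 lower, and 5277 to 5575 higher and 5481 to 5708 lower over all genes. Library totals moved the median change of all genes by 0.25; 12 members were then higher and 27 lower, and 65.8% instead of 49.5% of all called genes were higher. Smaller changes depend on the scaling. Among members that did not pass, Il1a (-0.04) was at 0.016 with upper-quartile factors, 0.21 with library totals and -0.22 to 0.058 with each library left out. Il15 (-0.12) was at 0.13 with library totals. Il20ra was at -0.62 to 0.036 with each library left out and at 0.030 in the 5 complete tables. The fitted value of Il2ra, which depends on the prior count, moved from -8.27 to -6.46 with limma-voom. Same-numbered libraries did not deviate together (correlations 0.02, 0.01 and 0.00), and a replicate block gave 9 members higher and 31 lower, and 5539 and 5664 over all genes, the same member counts as without it. Without the count filter 36 members were lower, with Il11ra2, Il12b, Il19, Il1f10 and Il24 added. Depth limits the genes with under 10 counts.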
